A study of Mus musculus with 7 samples.

Results

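C3H10T1/2 is a clonal line of fibroblast-like cells derived from C3H mouse embryos and labelled here as mesenchymal stem cells. The RNA described below is that of untreated cultures of this line, which gave 3 of the 7 libraries of the series. These libraries, called control 1, control 2 and control 3, are all those whose treatment label reads untreated. Cells grew in Modified Eagle's Medium with fetal bovine serum, glutamine, pyruvate and non-essential amino acids, and no inducer was added. RNA was taken with Trizol, and TruSeq v2 libraries of fragmented mRNA were sequenced, which hold no record of strand. The other 4 libraries came from the same line induced for osteoblast differentiation (day 3) and are used only for 1 set of features at the end. What the uninduced line transcribes, what it lacks, and how far its cultures differ from each other are described in turn. The design text calls the replicates biological. With 1 group there is no test between groups, and no p-value is given.

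Mesenchymal progenitors give rise to bone, cartilage, fat, tendon and muscle, and each fate is opened by a few transcription factors: Runx2 and Sp7 for bone, Sox9 for cartilage, Pparg and Cebpa for fat, Scx for tendon and Myod1 for skeletal muscle. Before commitment such cells resemble fibroblasts and lay down a matrix of collagen and fibronectin. C3H10T1/2 cells are a classic model because single cultures can be driven to several of these fates. Introduced Myod1, or a drug that removes DNA methylation, turns part of them into muscle.

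The deposited counts summed to 46530017 in control 1, 35391045 in control 2 and 25689889 in control 3. Levels are given as TPM, the count per exon base scaled to a sum of 1000000 over all features of a library, so that levels of different genes can be compared. In a gene of 2000 exon bases 1 TPM equals 26.8, 20.3 and 15.1 counts in control 1, 2 and 3. Trios of values below are always in that order. Of 21918 protein-coding genes 11187 (51.0%) reached 1 TPM in every library and are called detected. Another 7304 (33.3%) stayed under 0.1 TPM in every library, of which 5690 had no count at all, and 3427 lay between. These shares are the background for each marker list below. Control 3 stood apart from control 1 and control 2 in many genes, as shown after the levels. The submitters' descriptions begin with C1 for control 1, with C2 for control 2 and with no such number for control 3, so that culture and label cannot be told apart.

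The most abundant transcripts came from mitochondria, ribosomes and the matrix. The 10 highest features held 8.03 ± 0.119% (SD, n = 3) of all TPM, the 50 highest 19.7 ± 0.522% and the 500 highest 49.1 ± 0.491%. Protein-coding mt-Co1, which encodes a subunit of cytochrome c oxidase, stood first at 15630, 15728 and 14513 TPM. The elongation factor gene Eef1a1 followed at 10261, 8549 and 12124 TPM and the ribosomal stalk protein gene Rplp1 at 10357, 9222 and 9714 TPM. The mitochondrial genes mt-Cytb and mt-Nd1, of complexes III and I of the respiratory chain, stood at 8052, 8713 and 8351 TPM and 6174, 7142 and 7588 TPM. Of the 30 highest protein-coding genes 11 encode ribosomal proteins and 5 lie on the mitochondrial genome. Over all 85 ribosomal protein genes the share of TPM was 12.5 ± 0.927%, and the mitochondrial genome held 4.63 ± 0.103%.

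The first gene of the list that is neither ribosomal, mitochondrial nor part of translation was Lgals1, which encodes the secreted lectin galectin-1 and stood at 6514, 7113 and 7099 TPM. Next came Col1a1, the alpha 1 chain of type I collagen, at 6169, 7213 and 5145 TPM and rank 7 (ENSMUSG00000001506, 94936224 to 94953042 on chromosome 11 of mm10). The iron store gene Fth1 stood at 4399, 4866 and 4266 TPM, and Vim, which encodes vimentin, the intermediate filament of mesenchymal cells, at 4690, 4350 and 4063 TPM. Sparc, a collagen-binding matrix protein gene, had 3829, 4901 and 2562 TPM, with control 3 the lowest. Beta-actin (Actb) had 3496, 3299 and 3110 TPM and Tpt1, the gene of the translationally controlled tumour protein, 3518, 2855 and 3571 TPM. Col1a2 and Fn1 completed the matrix genes among the 30 highest, at 3300, 3209 and 2473 TPM and 2834, 2959 and 2123 TPM. The order at the top was close between libraries: each of these genes except Sparc (fold 1.91) differed by less than 1.5-fold between its highest and lowest library, on the scale log2(TPM + 0.1) used for all folds here.

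**Figure D1:**
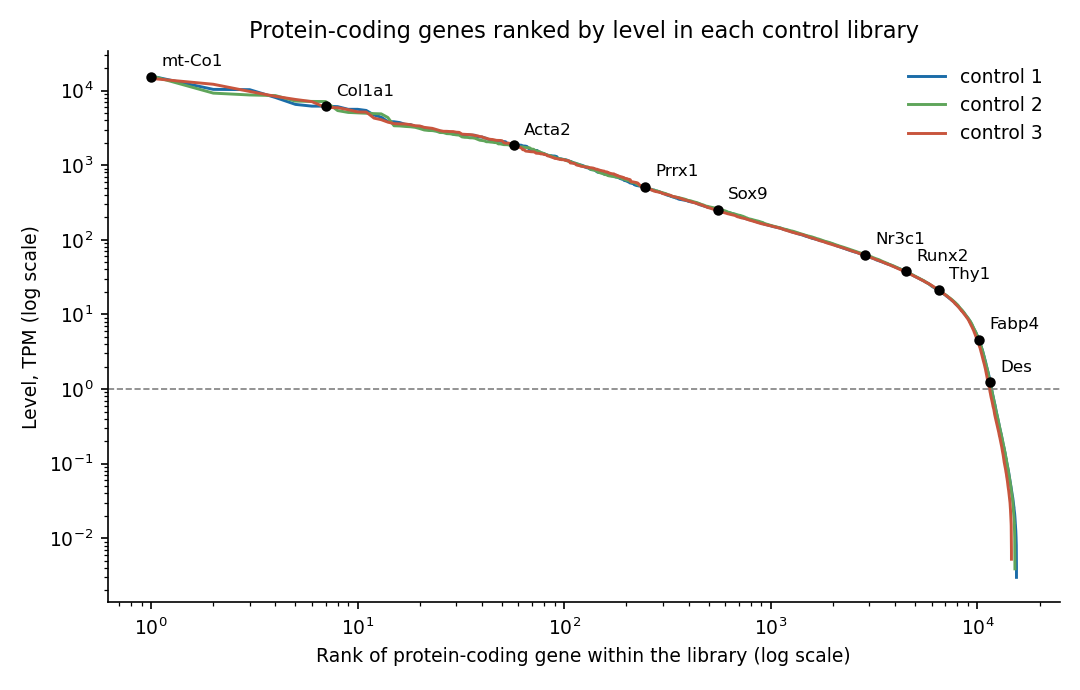
Level in TPM (log axis) against rank (log axis) for the protein-coding genes of each control library, 1 line per library. Black points mark 10 genes at their mean level and rank, and the dashed line is 1 TPM; the lines lie close together from mt-Co1 at the top and cross 1 TPM between ranks 11451 and 11718.

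Some levels near the top carry a limit of the counting. Fragments that align to several places or overlap several genes were not counted. Of the 50-base words of mt-Co2 100% recur elsewhere in the transcripts, of mt-Co3 99.9% and of mt-Atp6 99.5%, and these genes stood at only 373, 362 and 178 TPM for mt-Co2, 142, 139 and 69.6 TPM for mt-Co3 and 163, 252 and 89.2 TPM for mt-Atp6. Pseudogenes held 3.80% to 4.45% of TPM, and 59 of them had a mean of 100 TPM or more. The ribosomal pseudogene Rps2-ps10 shares 96.3% of its words with other genes, with Rps2 the closest. How far these levels belong to the parent genes was not tested.

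Matrix genes were abundant in the untreated line. Of 23 collagen genes 21 were detected and 1 stayed under 0.1 TPM in every library. Fibrillar Col3a1 stood at 1779, 1829 and 706 TPM, with control 3 the lowest. Col6a1 and Col6a2, chains of the beaded filament collagen around cells, had 1880, 2319 and 584 TPM and 532, 747 and 135 TPM and were lowest in control 3 as well. The regulators of fibril diameter Col5a1 and Col5a2 were level, at 465, 471 and 432 TPM and 467, 418 and 453 TPM. Basement membrane chains were present too, Col4a1 at 268, 371 and 223 TPM and Col4a2 at 256, 362 and 199 TPM. Col13a1, a membrane collagen gene, had no count in any library, which allows up to 0.0209 TPM if 3 counts over the 3 libraries are taken as the floor. Such limits cover counting error only. Col14a1, found in dense connective tissue, stayed near 0 at 0.106, 0.0701 and 0.0944 TPM.

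The machinery that folds and cross-links collagen was abundant as well. Of 30 matrix and matrix enzyme genes 28 were detected. The collagen chaperone gene Serpinh1 had 1574, 1882 and 1969 TPM and the cross-linking oxidase gene Lox 1955, 1634 and 1386 TPM. The prolyl hydroxylase subunit gene P4hb had 1028, 1228 and 996 TPM. Bgn, a proteoglycan gene, stood at 1633, 1926 and 1230 TPM and the protease inhibitor gene Timp2 at 1596, 1822 and 931 TPM. Matrix metalloproteinase genes differed among themselves: Mmp2, a gelatinase gene, had 729.5, 684 and 309.7 TPM and Mmp14, its membrane-bound activator, 372, 336 and 214 TPM, whereas Mmp3 (stromelysin) had no count in any library. Eln, the elastin gene, was the most uneven of the group at 11.6, 72.7 and 1.26 TPM, 53.5-fold between control 2 and control 3.

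The cells carried most of the surface genes used to recognise mesenchymal stromal cells, with gaps. Of 20 such genes 17 were detected, against 51.0% of all protein-coding genes. The integrin gene Itgb1 was highest at 719.6, 642 and 860.3 TPM. Ly6a, which encodes the mouse stem cell antigen Sca-1, had 661, 945 and 412 TPM (mean 672 ± 267 TPM, SD, n = 3; ENSMUSG00000075602, 74994877 to 74998031 on chromosome 15 of mm10). Cd248 (endosialin) had 646, 692 and 250.4 TPM, the tetraspanin gene Cd81 389, 371 and 265 TPM, and the receptor genes Pdgfrb and Pdgfra 339.5, 357 and 186 TPM and 109.8, 98.7 and 46.5 TPM. In all of these except Itgb1 control 3 was the lowest library. Thy1 and Eng, a pair of markers in the usual definition of the cell type, were lower, at 13.2, 18.1 and 32.7 TPM and 34.8, 36.2 and 31.2 TPM. Nt5e, the ecto-nucleotidase of that same definition, was close to absent at 0.139, 0.0686 and 0.123 TPM, with 30 counts in all. The leptin receptor gene Lepr, a marker of bone marrow stroma, stood at 0.370, 0.237 and 0.0939 TPM and the nerve growth factor receptor gene Ngfr at 0.0649, 0.0285 and 0.0769 TPM. The fibroblast list was detected to a like extent, in 18 of 20 genes, so these counts do not set the labelled cell type apart from fibroblasts.

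Transcription factors of mesenchyme were broadly expressed, 19 of 22 detected. The paired homeobox genes Prrx1 and Prrx2, active in limb and facial mesenchyme, had 544, 479 and 516 TPM and 558, 425 and 270.1 TPM. The mean of Prrx1 was 513 ± 32.4 TPM, SD, n = 3. Osr1, a factor of lateral and intermediate mesoderm, had 464, 458 and 288 TPM. The genes of the epithelial to mesenchymal switch Snai1 and Snai2 had 211, 259 and 172 TPM and 189.9, 184 and 100.2 TPM, and Twist1, an inhibitor of early bone differentiation, 114, 105 and 112 TPM. Twist2 was much lower at 4.16, 3.87 and 9.39 TPM, and 46.5% of its exon bases are shared with Gm29100. Tcf21 and Meox2 had no count in any library, and Meox1, a somite gene like Meox2, stayed under 0.1 TPM. Of 20 fibroblast genes 18 were detected, and Fap, a marker of activated fibroblasts, was low at 0.132, 0.261 and 0 TPM.

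**Figure D2:**
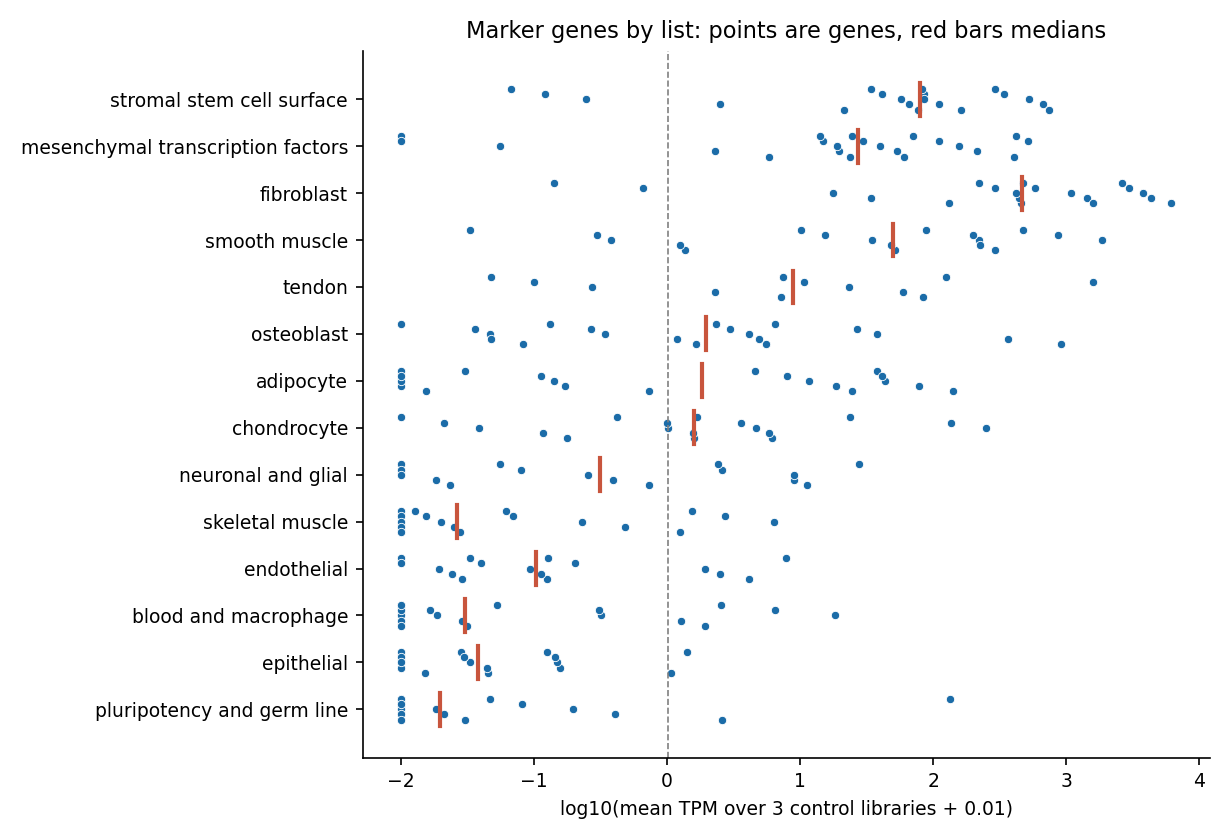
Mean level of each marker gene over the 3 control libraries, as log10(mean TPM + 0.01), by list; points are genes, red bars are list medians and the dashed line is 1 TPM. The medians lie highest for fibroblast genes (464 TPM), stromal surface genes (80.1 TPM) and smooth muscle genes (50.1 TPM), and under 0.1 TPM for skeletal muscle, endothelial, blood, epithelial and pluripotency genes.

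Bone genes ranged from abundant to absent. Of 20 osteoblast genes 10 were detected, a share near that of all protein-coding genes, and 4 were under 0.1 TPM everywhere. Runx2, the factor that commits cells to bone, stood at 44.5, 36.5 and 32.4 TPM (mean 37.8 ± 6.17 TPM, SD, n = 3; ENSMUSG00000039153, 44495987 to 44814797 on chromosome 17 of mm10). The homeobox gene Dlx5 had 29.1, 22.4 and 29.3 TPM. Sp7 (osterix), which acts after Runx2, had 0.373, 0.203 and 0.195 TPM from 29 counts in all. Spp1, which encodes osteopontin, was high at 715, 865 and 1179 TPM, with control 3 the highest. Atf4, a factor of amino acid stress that osteoblasts need, had 284, 376 and 437 TPM. The alkaline phosphatase gene Alpl had 5 counts over the 3 libraries, or 0.0370, 0.0731 and 0 TPM, which allows at most 0.0929 TPM by an exact 95% Poisson interval. Osteocalcin (Bglap) had 0.241, 0.318 and 0.428 TPM from 6 counts, and 56.6% of its 50-base words recur in other genes. Bone sialoprotein (Ibsp), Mepe and Sost were at or near 0.

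The fat lineage showed a similar division. Of 20 adipocyte genes 10 were detected and 6 were under 0.1 TPM in every library, shares near those of all protein-coding genes. Pparg, the nuclear receptor gene that governs fat cell formation, was even across the libraries at 46.5, 42.2 and 42.6 TPM (mean 43.8 ± 2.36 TPM, SD, n = 3; ENSMUSG00000000440, 115360951 to 115490399 on chromosome 6 of mm10). Cebpb and Cebpd, the early factors of the programme, had 87.5, 79.8 and 68.8 TPM and 38.6, 41.6 and 32.4 TPM. Cebpa, the partner of Pparg in mature fat cells, was uneven at 18.3, 33.6 and 4.17 TPM, a fold of 7.89 between control 2 and control 3. The lipid droplet coat gene Plin2, which most cell types express, had 143, 159 and 118 TPM, and Plin4 48.1, 55.9 and 20.6 TPM. Products of mature fat cells were rare: Fabp4 had 4.55, 5.74 and 3.39 TPM and Adipoq (adiponectin) 0.270, 0.214 and 0 TPM. Plin1, Lep, Cd36, Cidec, Retn and Ucp1 had between 0 and 1 count each.

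Cartilage genes were present at the top and the bottom of the scale. Sox9, the master factor of cartilage, had 281, 375 and 99.5 TPM, highest in control 2 and lowest in control 3 (ENSMUSG00000000567, 112782224 to 112787760 on chromosome 11 of mm10). Col2a1, the main cartilage collagen, had 106, 158 and 147 TPM, with no matching order of the libraries. Aggrecan (Acan), the large proteoglycan of cartilage, had no count in any library, an upper limit of 0.0129 TPM. Sox5 and Sox6, the usual partners of Sox9, were near 0 at 0.0311, 0.0547 and 0 TPM and 0.176, 0.312 and 0.00893 TPM. Col11a1, which nucleates cartilage fibrils, had 28.3, 27.2 and 15.6 TPM and Comp 6.21, 6.46 and 1.34 TPM. Cnmd (chondromodulin), a cartilage gene that restrains vessel growth, ranged most widely at 2.91, 14.4 and 0.0718 TPM and was chosen after its values were seen. Of the 18 members 6 were detected, and 6 of the 10 with a mean of 1 TPM or more were lowest in control 3 by at least 2-fold, against a background of 6.70% of genes. In control 1, 2 and 3, 10, 12 and 6 members reached 1 TPM. Some of the 10 thus passed the mean only through control 1 and control 2, so this count is not independent of the filter.

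Skeletal muscle genes were nearly silent. Myod1, Myf6, Pax7, Myh1 and Mymk had no count in any library, and for Myod1 (ENSMUSG00000009471, 46376474 to 46379099 on chromosome 7 of mm10) this allows up to 0.0518 TPM. Myf5, the earliest muscle factor, had 4 counts and Myog, which drives fusion, 2 counts. Of 18 members 2 were detected, Mef2c at 7.26, 9.03 and 2.92 TPM and the troponin gene Tnnt3 at 3.16, 3.29 and 1.67 TPM, and 10 were under 0.1 TPM everywhere. The desmin gene Des had 1.37, 1.70 and 0.635 TPM.

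Contractile genes of smooth muscle type were by contrast abundant, 14 of 18 detected. Acta2, the alpha smooth muscle actin gene, stood at 1915, 1657 and 1971 TPM and rank 57. Calponin 2 (Cnn2), the form found in many non-muscle cells, had 919, 728 and 962 TPM, the tropomyosin genes Tpm1 and Tpm2 596, 431 and 406 TPM and 230.0, 183 and 249 TPM, and the light chain gene Myl9 402, 259.5 and 219 TPM. Vinculin (Vcl) had 286, 234 and 157 TPM. Markers of mature smooth muscle were uneven. The smooth muscle gamma actin gene Actg2 had 32.2, 30.1 and 41.1 TPM, Smtn (smoothelin) 53.2, 63.4 and 39.9 TPM and Lmod1 (leiomodin) 16.2, 24.8 and 4.998 TPM. Myh11, the smooth muscle myosin heavy chain gene, had only 0.432, 0.324 and 0.105 TPM, Cnn1 0.327, 0.683 and 0.0968 TPM and the coactivator gene Myocd 0.0232, 0.0459 and 0 TPM. Tagln, usually a companion of Acta2, was counted at only 1.16, 1.24 and 1.67 TPM. Of its exon bases 67.9% are shared with Gm48529 on the opposite strand, and fragments in shared bases were not counted, so that this value covers the rest of the gene only.

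Of 12 tendon genes 9 were detected. Scx, the factor of tendon progenitors, had 23.01, 16.9 and 30.7 TPM, and Mkx, a homeobox factor of the same lineage, 8.95, 8.54 and 14.4 TPM. The tendon surface gene Tnmd had 5.73, 11.99 and 3.72 TPM. Tnc and Col12a1, matrix genes of tendon and of other stressed tissue, had 52.5, 61.2 and 63.6 TPM and 126, 133 and 116 TPM.

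Markers of unrelated cell types were mostly absent. In bulk RNA a low level cannot tell a few cells with the gene from little RNA in every cell. Of 16 endothelial genes 4 were detected, and the list summed to 15.8, 16.4 and 18.8 TPM. The defining members Pecam1, Cdh5 and Kdr were near 0, with 0.0479, 0.0316 and 0.170 TPM for Pecam1, 0.0355, 0.0234 and 0.0315 TPM for Cdh5 and 0.00826, 0.0327 and 0.0147 TPM for Kdr, and Tie1 and Sox17 had no count. The members that were detected were the receptor genes Flt1 at 6.13, 4.80 and 12.4 TPM and Tek at 4.13, 6.78 and 1.38 TPM, Egfl7 at 2.42, 1.98 and 3.11 TPM and Erg at 2.65, 1.96 and 1.18 TPM. Of 18 blood and macrophage genes 3 were detected and the list summed to 30.3, 27.8 and 34.98 TPM. Ptprc, the common leukocyte antigen gene, had 3 counts in all, and Cd3e, Adgre1, Tyrobp, Gata1 and Kit had none. The lipopolysaccharide co-receptor gene Cd14 stood at 15.7, 14.6 and 24.1 TPM and the lysosomal gene Cd68 at 6.88, 7.51 and 4.95 TPM. The remaining detected member was Cd34 at 2.39, 1.011 and 4.18 TPM.

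Of 16 epithelial genes none was detected in every library, and the list summed to 2.97, 4.42 and 2.05 TPM. Epcam, Cldn3, Cldn4 and Prom1 had no count. The highest was Cdh1 (E-cadherin) at 0.930, 2.45 and 0.840 TPM. Of 16 neuronal and glial genes 5 were detected. Of the microtubule genes Map2 had 32.7, 28.9 and 21.1 TPM, Stmn2 8.94, 6.41 and 18.6 TPM and Tubb3 6.87, 5.26 and 14.9 TPM. The intermediate filament gene Nes had 5.70, 7.003 and 14.2 TPM, while Rbfox3, Snap25 and Elavl4, which mark mature neurons, had no count. Of 16 pluripotency and germ line genes 1 was detected, Klf4 at 117, 123 and 163 TPM, a factor that many somatic cells also use. Pou5f1 (Oct4), Zfp42, Esrrb, Tdgf1, Sall4, Dazl and Tcl1 had no count, and for Pou5f1 this allows up to 0.0429 TPM. Sox2 had 2.36, 4.64 and 0.708 TPM.

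The Hox genes, which record the position of a cell along the body axis, were expressed from a single cluster. Mammals carry 4 clusters, in each of which gene order follows the order of expression along the axis. Of 11 HoxA genes on chromosome 6, 8 were detected with 16913 counts in all. Hoxa2 was highest at 70.3, 56.5 and 47.4 TPM, followed by Hoxa7 at 55.04, 46.2 and 50.2 TPM and Hoxa5 at 44.6, 34.8 and 37.4 TPM. Hoxa6 had 28.3, 23.3 and 20.8 TPM and Hoxa3 23, 22.1 and 11.5 TPM. Toward the end of higher numbers Hoxa10 had 10.2, 9.89 and 11.1 TPM, Hoxa9 only 0.856, 1.43 and 1.16 TPM, Hoxa11 no count and Hoxa13 1 count. In the other 3 clusters 0 of 28 genes were detected. HoxB had 23 counts over its 10 genes, HoxC 46 over 9 genes, of which 40 were from Hoxc13 (chosen after its values were seen) in control 2 alone, and HoxD none over 9 genes. Hoxd4 shares all of its exon bases, and Hoxd3 62.8%, with other genes, so their lack of counts says little. None of the 9 Hox genes with a mean of 1 TPM or more differed 2-fold between libraries. The background was 18.2% of genes, and 1089 of 8787 among genes with a mean of at least 10 TPM.

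The cells expressed receptors and intracellular parts of the major growth factor pathways. Of 30 BMP and TGF-beta genes 25 were detected. Among ligands Bmp4 had 283, 231 and 160.4 TPM, while Bmp2 had no count and Bmp7 1 count. Among receptors Bmpr1a had 68.3, 68.6 and 74.4 TPM, Bmpr2 23.1, 21.2 and 19.7 TPM and Tgfbr2 148, 138 and 67.97 TPM, while Bmpr1b had no count. The target genes Id1 and Id3, which block differentiation factors, were high at 262, 263 and 304 TPM and 353, 393 and 281 TPM. Grem1, a secreted BMP antagonist, had 245, 176 and 397 TPM, and Nog (noggin) stayed near 0 at 0.0880, 0.174 and 0 TPM.

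In the Wnt pathway 21 of 30 genes were detected. The receptor genes Fzd1 and Fzd2 had 372, 379.6 and 172 TPM and 261, 273 and 121 TPM, and beta-catenin (Ctnnb1) 341, 352 and 323 TPM. Lgr4, a receptor that strengthens the signal, had 305, 259 and 281 TPM. Of the ligands Wnt3a had no count and Wnt7b 3 counts, whereas Wnt5a, a ligand that acts without beta-catenin, had 18.3, 13.6 and 17.1 TPM. Axin2, a general target of the pathway, stood at 0.420, 0.857 and 0.168 TPM. Dkk1, an inhibitor, had no count, and the inhibitor Sfrp2 was uneven at 118, 215 and 7.01 TPM.

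Of 30 genes of the FGF, PDGF and IGF pathways 25 were detected. Igfbp7, an IGF-binding protein gene, was highest at 935, 961 and 922 TPM. Of the FGF receptor kinase genes Fgfr1 had 119, 114 and 72.9 TPM, Fgfr2 3.81, 4.94 and 2.72 TPM, Fgfr3 3.50, 10.96 and 1.28 TPM and Fgfr4 5 counts in all. Fgfrl1, a receptor-like gene without a kinase domain, had 131, 180.0 and 55.5 TPM. The ligand Fgf7 had 162, 165 and 153 TPM. Igf1 had 38.2, 61.3 and 2.57 TPM, lowest by far in control 3, and its receptor Igf1r 45.1, 39 and 54.95 TPM. Igf2, an imprinted growth factor gene that embryos express strongly, had 6 counts, and 64.5% of its exon bases are shared with Gm49394. Its imprinted neighbour H19, a noncoding RNA, was also low at 0.576, 0.520 and 0.108 TPM.

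Of 22 Notch and Hedgehog genes 11 were detected, a share near the 51.0% of all protein-coding genes. Notch3 had 81.2, 83.4 and 26.7 TPM, its ligand Jag1 69.5, 138 and 33.6 TPM, and Smo, the transducer of Hedgehog signals, 134, 131 and 109 TPM. Shh had no count, and the target gene Gli1 stood at 2.63, 3.56 and 4.48 TPM. Among 32 nuclear receptors 19 were detected, against the same 51.0%. The retinoic acid receptor gene Rarg was highest at 288, 248 and 223 TPM. The glucocorticoid receptor gene Nr3c1 had 68.9, 64.6 and 55.05 TPM (mean 62.8 ± 7.08 TPM, SD, n = 3; ENSMUSG00000024431, 39410545 to 39491301 on chromosome 18 of mm10), and the vitamin D receptor gene Vdr 42.9, 42.7 and 31.9 TPM. The progesterone receptor gene Pgr, Rxrg and Hnf4a had no count.

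The sex chromosome genes gave 1 pattern in all libraries. Xist, the noncoding RNA that silences an X chromosome in female cells, had 320.0, 249 and 242 TPM, and the Y-linked genes Ddx3y, Uty, Kdm5d, Eif2s3y, Zfy1 and Sry had no count. For Ddx3y this allows up to 0.0185 TPM.

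Genes that hold cells out of division were expressed beside those that drive it. Of 22 growth arrest and p53 genes 21 were detected. Trp53 had 129.7, 129.9 and 155 TPM, Cdkn2a, the gene of the p16 and p19 inhibitors, 154, 102 and 121 TPM, and Cdkn1a (p21) 234, 203 and 154 TPM. Ccng1 and Bax, targets of p53, had 240.4, 185 and 318 TPM and 232, 234 and 230.3 TPM. Cdkn1c (p57), an imprinted inhibitor, had 1 count. The D-type cyclin gene Ccnd1 stood at 147, 184 and 304 TPM, highest in control 3. Of the 21 members with a mean of 1 TPM or more 3 differed 2-fold. The background was 18.2% of genes, but 1089 of 8787 among genes with a mean of at least 10 TPM, so this list was not steadier than genes of like level.

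Metabolic gene lists differed in how many members varied 2-fold between libraries. All 24 nuclear genes of the respiratory chain were detected, and 1 of them, the cytochrome c gene Cycs at 44.1, 54.9 and 113 TPM, differed 2-fold. The ATP synthase gene Atp5b had 1175, 1216 and 1521 TPM and Cox6a1 1450, 1554 and 913 TPM. Of the 13 genes of the mitochondrial genome list 5 differed 2-fold. In 3 control 3 was at least 2-fold below both others, against a background of 6.70% of genes. Among the 5 were mt-Co2, mt-Co3 and mt-Atp6, of whose 50-base words at least 99.5% recur elsewhere, so that few of their fragments could be counted. Whether their RNA differed was not tested. The share of TPM of the whole mitochondrial genome was 4.63 ± 0.103% (SD, n = 3). Of 20 cholesterol synthesis genes 19 were detected and none of these differed 2-fold. The background was 18.2% of genes, and 1089 of 8787 among genes with a mean of at least 10 TPM. Hmgcs1, the entry enzyme of the pathway, had 271, 247 and 238 TPM, the regulator Srebf2 262, 298 and 202 TPM and the lanosterol demethylase gene Cyp51 189.6, 187 and 200.4 TPM. All 20 genes of the unfolded protein and amino acid responses were detected, led by the chaperone genes Calr at 1090, 1287 and 1070 TPM and Pdia3 at 739.6, 782 and 841 TPM. Of these 20 genes 5 differed 2-fold, and in 3 control 3 was at least 2-fold above both others. The glycolysis genes are described with the differences between libraries.

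Control 1 and control 2 were close to each other, and control 3 was farther from both. Over the 11694 protein-coding genes with a mean of 1 TPM or more, Pearson's r of log2(TPM + 0.1) was 0.984 between control 1 and control 2, 0.929 between control 1 and control 3, and 0.927 between control 2 and control 3. These are correlations across genes, which share library and depth, and carry no p. Control 2 was at least 2-fold above control 1 in 299 genes (2.56%) and below in 85 (0.727%). Control 3 was at least 2-fold above control 1 in 750 genes (6.41%) and below in 1010 (8.64%). Against control 2 it was above in 503 (4.30%) and below in 967 (8.27%). A gene that is low in 1 library and passes the mean through the others had to differ, so these counts depend on the filter, and with a mean of at least 10 TPM 1089 of 8787 genes differed 2-fold. The common biological coefficient of variation, the spread beyond counting error estimated by edgeR, was 29.5% over 14433 genes. It was 16.0% for control 1 and control 2 alone.

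**Figure D3:**
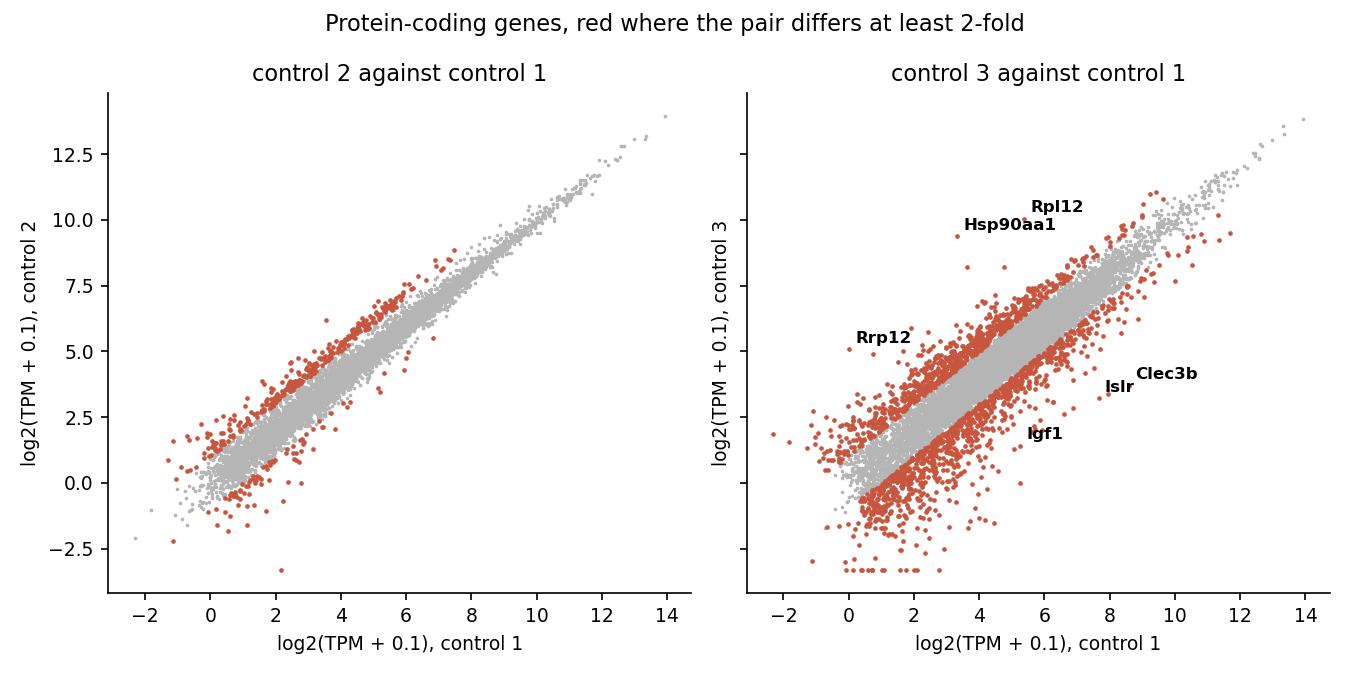
Log2(TPM + 0.1) of 11694 protein-coding genes in control 2 (left) and control 3 (right) against control 1; each point is a gene, red where the pair differs at least 2-fold. Control 3 shows 1760 red genes and control 2 shows 384, and the named genes lie far from the diagonal.

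Of those 11694 genes 2129 (18.2%) differed at least 2-fold between their highest and lowest library. Control 3 was at least 2-fold below both others in 784 genes (6.70%) and above both in 359 (3.07%). Control 1 was below both in 166 (1.42%) and above in 15 (0.128%), and control 2 was above both in 34 (0.291%) and below in 36 (0.308%). The genes below were chosen by the size of their spread in these libraries, so their values are a description. For this choice the library that stood apart was whichever of the highest and lowest lay farther from the middle library. That gap was under 2-fold in some of the genes, whose levels are graded over the libraries.

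Of the 10 genes named because control 3 stood apart, it was the lowest library in all but Hsp90aa1, described below. Clec3b (tetranectin) had 388, 488 and 12.8 TPM, a fold of 37.8. Islr, a gene of stromal progenitors, had 202, 354 and 9.17 TPM, and Fxyd1 (phospholemman), a regulator of the sodium pump, 22.04, 36.8 and 0.242 TPM. The calcium channel gene Cacna1g had 38.1, 62.7 and 0.888 TPM and the hypoxia factor gene Epas1 23.8, 55.2 and 1.25 TPM. Otor stood at 14.5, 41.3 and 0.419 TPM, the protease inhibitor gene Pi15 at 13.1, 20.4 and 0.268 TPM and the interferon-inducible GTPase gene Iigp1 at 15.8, 19.1 and 0.297 TPM. In each of these 8 genes control 1 and control 2 were within 3-fold of each other. The elastin gene Eln, given with the matrix genes, was the exception at 11.6, 72.7 and 1.26 TPM. Among genes where control 2 stood apart, the collectin gene Colec10 had 35.1, 120.3 and 11.5 TPM and Stard8 6.35, 26.5 and 3.47 TPM. Olfml2b had 12.03, 34.8 and 7.02 TPM, the adhesion gene L1cam 7.43, 25.6 and 13.5 TPM and the surface antigen gene Ly6c1 51.4, 104 and 25.6 TPM. The clock repressor gene Nr1d1 had 49.9, 93.8 and 29.2 TPM and the nuclear corepressor gene Hr 15.2, 29.7 and 8.71 TPM. Control 2 was instead lowest for the protease gene Adamts6 at 13.9, 4.04 and 18.2 TPM, for Tes, a focal adhesion gene, at 28.9, 15.98 and 50.7 TPM and for Gprin3 at 18.2, 9.30 and 29.1 TPM.

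Of the 10 genes named because control 1 stood apart, it was the lowest library in all but Igsf10, which had 63.4, 26.4 and 14.4 TPM. Among the lower ones the E2F family repressor gene E2f8 had 5.10, 12.6 and 23.6 TPM, the checkpoint adaptor gene Clspn 7.80, 16.9 and 35.01 TPM, the cohesin acetyltransferase gene Esco2 5.42, 13.4 and 24.4 TPM and the condensin gene Ncapg 8.99, 20.8 and 39.7 TPM. Trip13 had 6.51, 15.04 and 29.2 TPM and Mybl2, a factor that activates mitotic genes, 6.34, 13.5 and 28.1 TPM. Aunip, Ercc6l and Fignl1, with roles at spindles, centromeres and DNA repair, stood at 3.74, 8.79 and 18.1 TPM for Aunip, 6.11, 14.6 and 26.5 TPM for Ercc6l and 8.60, 20.2 and 36.7 TPM for Fignl1.

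The wider cell cycle list had control 1 at the bottom in every member. All 35 genes were detected and control 1 was the lowest library in all 35. In 33 the libraries differed 2-fold, and in 23 control 1 was at least 2-fold below both others, against a background of 1.42% of genes. The gene lists were chosen with earlier results of these data known, so such contrasts with the background are a description. Control 3 was highest in 28 and control 2 in 7. Mki67, the Ki-67 proliferation marker, had 59.1, 139 and 182 TPM and the DNA topoisomerase gene Top2a 83.04, 233 and 237 TPM. The mitotic genes Cdc20, Ccnb2 and Plk1, which trigger or drive chromosome separation, were each highest in control 2, with 178, 464 and 386 TPM for Cdc20, 134, 275 and 242 TPM for Ccnb2 and 61.6, 188 and 166 TPM for Plk1. Pcna, the replication clamp, had 104, 159 and 309 TPM and Mcm2, part of the replicative helicase, 19.8, 38.6 and 85.1 TPM (chosen after its values were seen), each highest in control 3. The median over the list, relative to the mean of the libraries, was -1.06 in control 1, 0.15 in control 2 and 0.49 in control 3 on the log2 scale, while over all protein-coding genes these medians were 0.012, -0.0044 and -0.022.

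Promoters of mitotic genes are known for CCAAT boxes, the site of the factor NF-Y. They are shown here because these genes moved together between cultures, and a match is only a match of letters. The 250 bases before the RefSeq start of each gene (build GRCm38.p6) were searched for CCAAT on both strands, and 22 of the 28 list members with an entry held it, or 78.6%, against 10133 of 27025 genes (37.5%). That background holds every gene with an entry, whether or not these cells express it. The letters TTTGAA, the core of another element of such promoters, were in 7 of the 28 (25%) against 18.3% of all. The stretches around the matches run 5′ to 3′ along the gene's strand, with each CCAAT in capitals, at chr9:70421556-70421656 (minus strand) for Ccnb2, chr4:118437344-118437411 (minus) for Cdc20 and chr7:122159406-122159434 (plus) for Plk1.
Ccnb2: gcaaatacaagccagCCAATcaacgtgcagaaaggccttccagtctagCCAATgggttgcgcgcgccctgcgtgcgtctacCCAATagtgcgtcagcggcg
Cdc20: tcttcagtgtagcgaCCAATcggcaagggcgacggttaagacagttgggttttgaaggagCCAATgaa
Plk1: tttaaatccccgcggCCAATcagcaacgc
Ccnb2 holds 3 copies in the same direction, the first 87 bases before the start. Cdc20 holds 2 copies and Plk1 1, the last of Cdc20 lying 8 bases before the start.

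Most interferon-responsive genes ran in the other direction. Interferon genes answer viral RNA or DNA through transcription factors that bind a repeated element in their promoters. Of 20 such genes 15 were detected in all libraries, and 13 of the 18 with a mean of 1 TPM or more differed 2-fold. Control 1 was highest in 16 of the 18 and control 3 lowest in 16, at least 2-fold below both others in 11, against a background of 6.70%. In control 1, 2 and 3, 19, 17 and 15 members reached 1 TPM. Some of the 18 thus passed the mean only through control 1 or control 2, so these counts are not independent of the filter. Ifitm3, a membrane protein gene that blocks virus entry, had 1341, 1354 and 500.2 TPM and Ifi27 371, 369 and 146 TPM, each with control 1 and control 2 alike. In others control 2 lay between: Ifit1, which binds viral RNA, had 60.6, 19.6 and 3.89 TPM, Ifit3 77.3, 41.2 and 8.27 TPM, and the ubiquitin-like modifier gene Isg15 52.6, 30.7 and 7.01 TPM. Irf7, an amplifier of the response, had 11.3, 6.17 and 2.14 TPM. Ifit1, Isg15 and Irf7 were chosen after their values were seen. Not all followed: Ifit2 had 33.4, 32.2 and 44.2 TPM, and Irf3, which is not itself induced, 43.8, 37.1 and 42.9 TPM. The median over the list was 0.47, -0.06 and -1.05 on the log2 scale relative to the mean. Of the Ifit3 50-base words 51.2% recur in other genes.

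That element, the interferon-stimulated response element, was searched in the same 250-base windows on both strands as GAAA, any 2 bases and GAAA again. It was in 6 of the 15 list members with an entry (40%) against 936 of the same 27025 genes (3.46%), expressed here or not. The matches are in capitals for the 3 genes shown because control 1, control 2 and control 3 lay far apart in them, at chr19:34640770-34640828 (plus strand) for Ifit1, chr19:34583358-34583431 (plus) for Ifit3 and chr4:156200860-156200911 (minus) for Isg15.
Ifit1: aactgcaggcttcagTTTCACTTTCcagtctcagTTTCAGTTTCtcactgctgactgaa
Ifit3: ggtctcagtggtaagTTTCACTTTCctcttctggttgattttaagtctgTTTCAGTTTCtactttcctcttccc
Isg15: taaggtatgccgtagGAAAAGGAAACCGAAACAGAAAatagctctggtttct
In Ifit1 and Ifit3 the 2 matches lie on the opposite strand, so the letters read as the reverse complement. In Isg15 3 matches overlap in 1 run.

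Many glycolysis genes were higher in control 3. Of 21 genes 19 were detected, and in 11 of these control 3 was at least 2-fold above both others, against a background of 3.07%. Pgk1, phosphoglycerate kinase, had 685, 662 and 2141 TPM, the lactate dehydrogenase gene Ldha 521, 563 and 1545 TPM and the pyruvate kinase gene Pkm 789, 866 and 1751 TPM. Aldoa had 508, 455 and 1178 TPM and Gapdh, often taken as a constant reference, 505, 453 and 1112 TPM, a fold of 2.46. Control 1 and control 2 were alike in each of these. The share of 50-base words that recur in other genes was 53.9% for Pgk1, 25.8% for Pkm, 24.7% for Gapdh, 9.03% for Ldha and 6.43% for Aldoa, and 0% for Hk1. Hk1, Eno2 and Ldhb were not higher in control 3 by 2-fold, with 132, 130.0 and 114 TPM for Hk1, 26.8, 22.3 and 25.9 TPM for Eno2 and 76.7, 74.02 and 77.6 TPM for Ldhb. Pfkm, the muscle form of phosphofructokinase, was lowest in control 3 at 144, 140.4 and 86.3 TPM. The list medians were -0.45, -0.49 and 0.64 on the log2 scale. CCAAT was in 7 of 20 glycolysis promoters (35%), about the share of all genes.

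**Figure D4:**
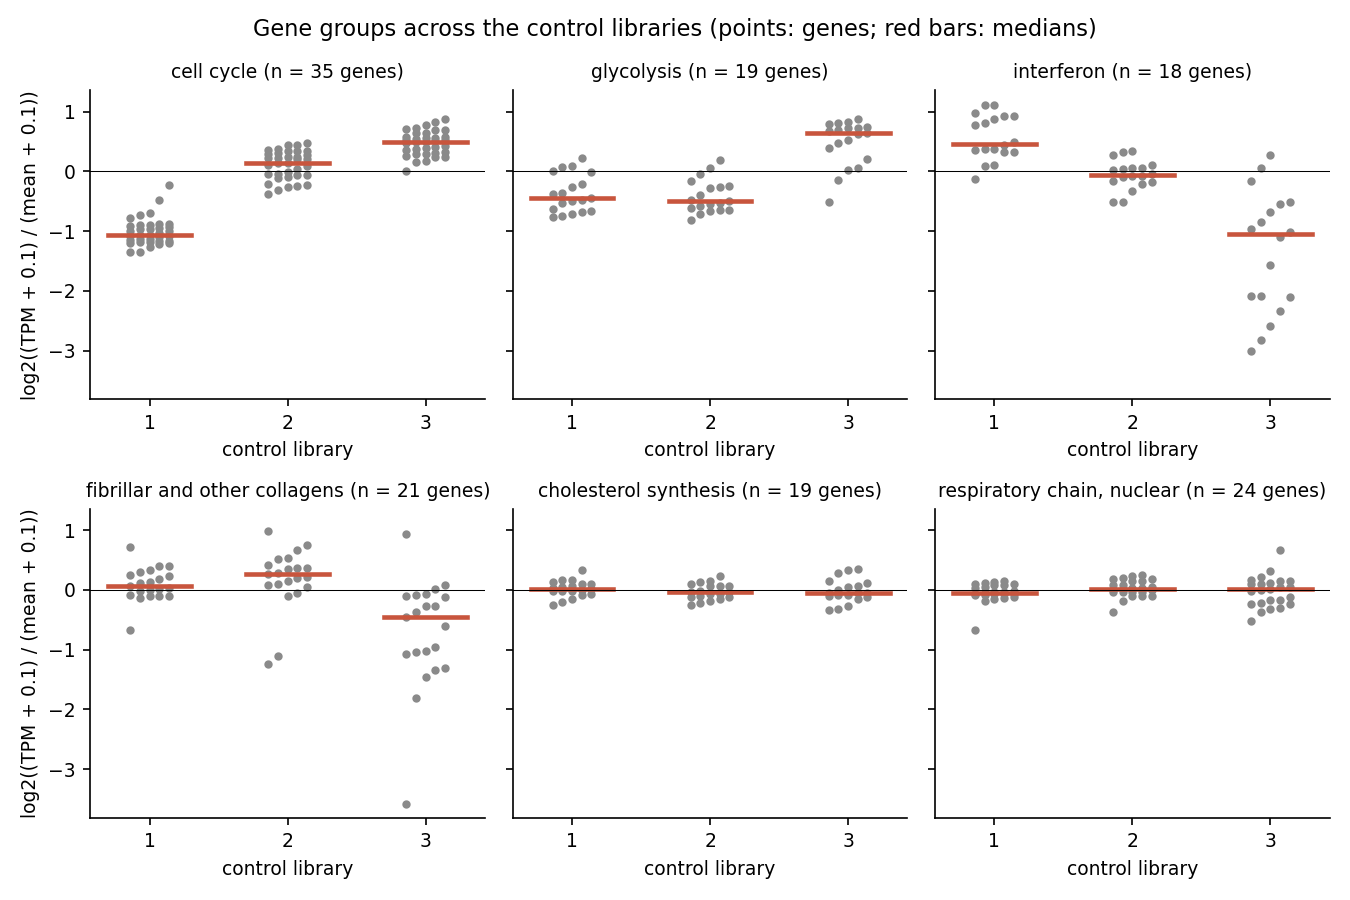
Log2 level relative to the mean of the 3 control libraries, with 0.1 TPM added, for 6 gene lists; points are genes with a mean of 1 TPM or more and red bars are list medians. Cell cycle medians are -1.06, 0.15 and 0.49 in control 1, 2 and 3 and interferon medians 0.47, -0.06 and -1.05, while cholesterol synthesis and respiratory chain genes stay near 0.

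Some members of several smaller groups stood apart in control 3. Of 21 collagen genes with a mean of 1 TPM or more 11 differed 2-fold, and control 3 was at least 2-fold below both others in 9 and above in 1, Col7a1 at 4.24, 3.10 and 12.98 TPM (chosen after its values were seen). Decorin (Dcn) and lumican (Lum), small proteoglycans of collagen fibrils, had 52.7, 46.5 and 4.04 TPM and 17.2, 33.9 and 1.41 TPM. In 8 of 23 Wnt genes control 3 was at least 2-fold below both others and in 1 above. Of these 23 genes 21 were detected in every library. In 7 of 19 immediate early genes it was at least 2-fold above both others and in none below. The background over all genes was 6.70% below and 3.07% above. Egr1, an early response factor, had 45.2, 45.3 and 161 TPM, Fosl1 22.6, 24.4 and 113 TPM and Myc 16.1, 19.2 and 60.8 TPM (the last chosen after its values were seen). Ccn2, a target of growth factor and mechanical signals, had 22.3, 28.7 and 143 TPM. Of 12 cytokine genes control 3 was at least 2-fold above both others in 4, among them Ccl2 at 25.4, 29.6 and 62.2 TPM. Cxcl12, the chemokine that stroma uses to hold blood stem cells, was high in every library at 721, 541 and 929.6 TPM, as was the osteoprotegerin gene Tnfrsf11b at 223, 176 and 296 TPM, while its ligand Tnfsf11 had no count.

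A further set of features was far higher in control 3, and they were chosen after their values were seen. The ribosomal RNA genes of mitochondria held 0.000840%, 0.00108% and 0.0507% of counts, with mt-Rnr2 at 10.4, 15.7 and 738 TPM. The chaperone gene Hsp90aa1 had 9.85, 12.7 and 660.3 TPM, a fold of 66.4, while its close relative Hsp90ab1 had 2376, 2525 and 3345 TPM. Of the Hsp90aa1 50-base words 47.5% recur in other genes. Rpl12 had 41.4, 41.04 and 1055 TPM and was the only 1 of 82 ribosomal protein genes with a mean of 1 TPM or more that differed 2-fold. Of 8 genes whose symbols begin with Rrp, which encode factors of ribosomal RNA processing, 7 were at least 4-fold higher in control 3. Rrp1 had 26.9, 24.2 and 298 TPM, Rrp12 0.915, 1.14 and 33.6 TPM and Rrp15 1.57, 1.61 and 29.6 TPM, and none of the 50-base words of Rrp1 and Rrp12 recur in other genes. The noncoding feature Gm26917 had 4.84, 4.16 and 258 TPM. Among the induced libraries 2 have descriptions that begin with C1 or C2, and 2 carry a number only further on. Of 129 features at least 4-fold higher in control 3 than in both other controls, 21 (16.3%) split in the same way there. They were 4-fold higher in both induced libraries without the leading C number than in both with it, against 0.343% of all 15163 features examined. Of the 21 features 11 are protein-coding and 5 are pseudogenes. In the induced libraries that begin with C1, with C2 and in the pair without a leading C number, Hsp90aa1 had 10.4, 11.5, 304.5 and 319 TPM. Of the 588 features that were 2-fold higher in control 3 86 (14.6%) and of the 1330 that were lower 113 (8.50%) showed this split, against 1.68% and 1.42% of all. Leaving out the 21 features changed the count of genes with a 2-fold spread from 2129 to 2118 and the count above in control 3 from 359 to 348. The 11 protein-coding ones were chosen as at least 4-fold higher in control 3, so both falls were fixed in advance. Features that split only at 2-fold were not left out, so the weight of the split in these counts was not tested. What in the culture or its processing goes with the label was not tested.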

How the data were processed

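The 3 untreated libraries were described, with the 4 induced ones used only for features that split by label, and the members and gene lists were chosen with earlier results of these data known. Per the labels' protocols, Trizol RNA was made into TruSeq v2 mRNA libraries. Reads were trimmed and aligned before counting: Trimmomatic, HISAT2 and the build mm10 appear in the submitters' processing notes without versions. The deposited values are whole fragment counts per gene, which the authors made with featureCounts 1.6.4 over Ensembl 94 exons per the file headers, without strand, multi-mapping or overlap options. Columns carry numbers only, and each was tied to a sample by the order of inputs in the recorded counting command. This could not be checked independently.

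TPM was computed from count and deposited exon length over all 54532 features, of which 54409 had a symbol. The 123 without one held at most 0.0612% of counts. Gene coordinates and exon overlap came from the deposited exon positions (Ensembl 94). Biotypes and recurrence of 50-base words came from a separate GENCODE annotation and its transcripts on the same build. Folds are on log2(TPM + 0.1). Limits for rare genes come from 95% exact Poisson intervals on pooled counts, with 3 counts as the floor where none was seen. These cover counting error only. The coefficient of variation is from edgeR 4.0.16 in R 4.3.3 with an intercept only, filterByExpr and TMM factors (0.994 to 1.005). Totals of 25689889 to 46530017 counts make 3 counts in a 2000-base gene 0.112 to 0.199 TPM.

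Scripts were tested on simulated data. The 34 lists hold 700 different genes. Named were the 30 highest protein-coding genes, for each library that stood apart the 10 largest spreads with a mean of at least 10 TPM (predicted names left out), up to 6 members of each list by level, members under 0.1 TPM everywhere, and a fixed set of marker genes. Other list members were named for their role after values were seen, and a few are not reported here. Promoter windows are RefSeq's (GRCm38.p6). Alternatives changed the detection level, the TPM denominator, the length, the pseudocount, the filter, the scaling (TMM factors, DESeq2 1.42.0 size factors) and left out each library.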

Additional observations from a re-analysis of the deposited data

How the results depend on the processing

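No paired analysis was possible because only 1 group is described and no test between groups was made. The number of lineage markers detected, 64 of 186, was 37 when 5 TPM was required and 62 to 74 otherwise, with 64 to 74 on leaving out 1 library. The number of protein-coding genes detected, 11187, was 9504 at 5 TPM and 11708 at 0.5 TPM, and stromal markers numbered 16 or 17 of 20 throughout. Without control 3, 10 chondrocyte, 4 skeletal muscle, 5 blood, 1 epithelial and 2 pluripotency genes were detected. The share of TPM in the 50 highest features, 19.7%, was 17.7% without the mitochondrial genome, 20.5% over protein-coding genes only, 21.6% with effective lengths, and 19.6% to 20.02% on leaving out 1 library. The count of genes with a 2-fold spread, 2129, was 3952 with no filter, 1089 with a mean of at least 10 TPM, and 393 (without control 3) to 1721 on leaving out 1 library. The counts in control 3 above and below both others were 648 and 1311 with no filter and 175 and 359 with a mean of at least 10 TPM. A pseudocount of 1 TPM gave 1705, 272 and 585 for the spread, above and below. The coefficient of variation, 29.5%, was 16.0% without control 3 and 33.9% or 34.99% without control 1 or 2, and 32.9% with no filter. Of 104 named levels 16 moved by more than 1 SD with effective lengths, 15 over protein-coding genes only, 5 without the mitochondrial genome, and 0 with TMM factors. Means over the other 2 libraries differed by over 1.5 times for 3 without control 1, 15 without control 2 and 14 without control 3, where Hsp90aa1 fell from a mean of 227.6 to 11.3 TPM. Eln fell from 28.5 to 6.41 TPM without control 2. Depth limits the low end: a gene with 0 counts is shown only to lie under its limit.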
